A study of Mus musculus with 24 samples.

Results

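Microvessels of the hemisphere opposite the occluded artery were compared between mice with stroke and sham-operated mice 7 days after surgery. The comparison rests on 6 of the 24 RNA-seq libraries of the study, namely the 3 tMCAO and the 3 sham libraries whose labels name the contralateral hemisphere and 7 days. In the tMCAO group, male C57BL/6J mice aged 10 to 12 weeks had a filament in the middle cerebral artery for 60 min before reperfusion. In the sham group, mice of the same strain, sex and age had the same surgery with the filament drawn back at once. Each library held vessel fragments of 3 pooled hemispheres after perfusion, removal of the meninges and sieving, so 9 animals stood behind each group of 3 libraries. The other libraries were the ipsilateral hemispheres at 7 days and both hemispheres at 24 h. They are used below only to show where the contralateral 7 day comparison differed from them.

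Brain microvessels consist of endothelial cells with pericytes, some smooth muscle, basement membrane and attached astrocyte endfeet. Their endothelium keeps leukocyte adhesion molecules low at rest and raises them when cytokines act on it. Endothelial cells also carry interferon receptors, which signal through JAK kinases and STAT proteins to a shared set of antiviral and antigen-presentation genes. Like most cells they hold a circadian clock, in which BMAL1 (Arntl) and CLOCK drive the Per and Cry repressors.

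The deposited values were normalized counts, that is, read numbers per gene that the authors had scaled between libraries and rounded, with library totals of 16182513 to 17786552 in the 6 libraries. Size factors recovered from the spacing of low values put these libraries at an estimated 15533761 to 20033951 reads on genes. The median endothelial marker had 4810 to 5770 normalized counts per kb of exon in the 6 libraries, the median pericyte marker 1050 to 1340, the median astrocyte marker 189 to 563 and the median neuron marker 87.4 to 396. Of these panels the endothelial one was the highest. The median smooth muscle marker had 1140 to 2520 normalized counts per kb. The median erythrocyte marker had 796 to 10600, which reached above the endothelial range. The summed normalized counts of the erythrocyte panel were 16563 to 58227 in sham and 4411 to 29188 in tMCAO libraries. Those of the choroid plexus panel were 5774 to 52389 and 6034 to 22798. The groups overlapped in both panels. The T cell markers Cd3e, Cd3d, Cd3g and Cd8a and the neutrophil marker Ly6g were under the limit for testing. Replicate 1 of the tMCAO libraries stood apart, with 1420 genes (8.88%) more than 1 log2 unit from both other replicates, 1252 of them higher, while the other 5 libraries had 1.32 to 2.94% such genes. For part of the values that moved when it was left out, both values are given, so a value given alone need not be stable without it.

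Of 15982 genes tested, 5 were called (0.0313%), with limma, a Benjamini-Hochberg adjusted p under 0.05 and a difference of more than 1.5-fold in either direction. Per2, Icam1, C4b and Usp2 rose and Il10rb fell. At an unadjusted p under 0.05, 1036 genes (6.48%) were higher and 603 (3.77%) lower in tMCAO vessels. The log2 difference was above 0 in 51.7% of all genes, with a median of 0.01. The libraries of the groups did not overlap in 806 genes that were higher (5.04%) and 761 that were lower (4.76%). Whether the pools of a group came from separate surgery days is not stated in the sources used here. The p-values rest on a spread between pools that was shared over all 8 groups of the study, not on these 6 libraries alone. The median SD of a gene on the log2 scale was 0.25 in these tMCAO and 0.20 in these sham libraries. In the other groups it was 0.16 to 0.22. A fit of only the 2 groups called 0 genes.

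**Figure D1:**
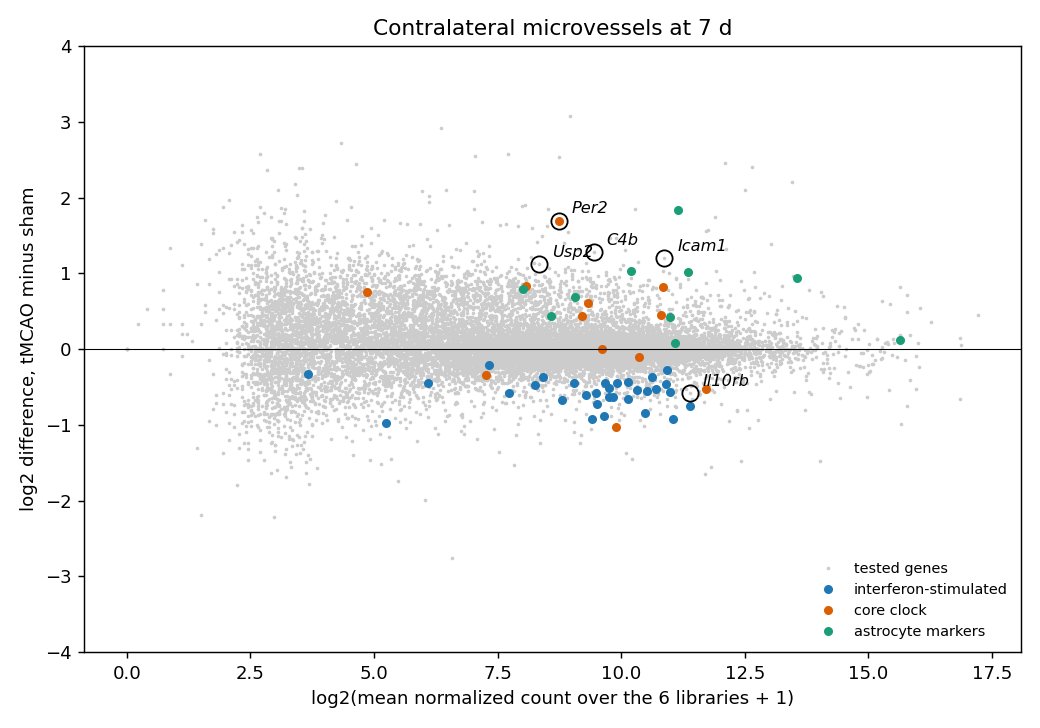
Log2 difference between tMCAO and sham contralateral vessels at 7 days (vertical) against the mean level over the 6 libraries on a log2 scale (horizontal), with 1 point for each of 15982 genes. Circles mark the 5 called genes, and all 31 interferon-stimulated genes (blue) lie below 0 while the 10 astrocyte markers (green) lie above it.

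Per2, a repressor of the circadian clock, had 174, 170 and 269 normalized counts in the sham libraries and 639, 659 and 648 in the tMCAO libraries. All tMCAO values were above all sham values and lay close to each other. The log2 difference was 1.69 ± 0.20 (SE), with an adjusted p of 8.8e-04 by limma. Of the 5 called genes, it alone was also called whichever of the 6 libraries was left out. The gene lies on the minus strand of chromosome 1 (chr1:91415982-91459324, mm10).

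Icam1 encodes the endothelial ligand for leukocyte integrins. It had 1199, 1087 and 1129 normalized counts in sham and 2625, 2726 and 2495 in tMCAO vessels (chr9:21015985-21028817, plus strand, mm10). The groups were far apart, with little spread within either. The log2 difference was 1.20 ± 0.17 (SE; limma, adjusted p = 0.0076), and without tMCAO replicate 1 it was 1.20 with an adjusted p of 0.058. The antisense gene Gm47079 overlaps it. ICAM1 is a known target of NF-κB. A stretch of its promoter from RefSeq (GRCm38.p6, chr9:21015742-21015841, plus strand) is shown because it holds a match to the NF-κB letters GGANNTTCC, given in capitals. The match starts 153 bases before the start site.
Icam1: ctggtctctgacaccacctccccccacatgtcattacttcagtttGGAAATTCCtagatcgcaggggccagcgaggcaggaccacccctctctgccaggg
These letters, read on both strands, occur in the promoter windows of 300 bases of 4.86% of 27025 genes. They occur in 3 of the 12 leukocyte adhesion genes with such a window.

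C4b encodes complement component C4, which is shared by the classical and lectin pathways. It had 361, 392 and 445 normalized counts in sham and 1103, 1211 and 671 in tMCAO vessels (chr17:34728380-34743882, minus strand, mm10). The groups did not overlap, although tMCAO replicate 3 lay well under its group. The log2 difference was 1.27 ± 0.22 (SE; limma, adjusted p = 0.036), and without tMCAO replicate 1 it was 1.18 with an adjusted p of 0.20. C4a is a near-identical copy. By the paper's methods, reads with several matches were removed, so reads that match both genes were not counted. Astrocytes are known to express C4b, and the astrocyte markers described below were higher in the same libraries; their part in this difference was not tested.

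Usp2 encodes a deubiquitinase that acts on clock proteins and follows a daily rhythm in many tissues. It had 183, 226 and 194 normalized counts in sham and 585, 351 and 405 in tMCAO vessels (chr9:44067021-44095627, plus strand, mm10). The lowest tMCAO library was above the highest sham library. The log2 difference was 1.12 ± 0.20 (SE; limma, adjusted p = 0.043), and without tMCAO replicate 1 it was 0.91 with an adjusted p of 0.26. The annotation places antisense genes (Gm49380 and Gm39325) over it.

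Il10rb encodes a receptor chain shared by interleukin 10, interleukin 22 and the lambda interferons. It had 3112, 3263 and 3265 normalized counts in sham and 1804, 2469 and 2200 in tMCAO vessels (chr16:91406235-91425834, plus strand, mm10). The sham libraries were nearly equal, and every tMCAO library was below them. It fell by 0.59 on the log2 scale (SE 0.09; limma, adjusted p = 0.018), barely past the 1.5-fold limit. Without tMCAO replicate 1 the log2 difference was -0.46 with an adjusted p of 0.089. The gene overlaps Gm21970 on its own strand.

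At 24 h these genes had contralateral log2 differences of 0.51 (Per2), -0.05 (Icam1), 0.04 (C4b), -0.08 (Usp2) and -0.02 (Il10rb). No gene of the contralateral comparison at 24 h was called by limma, with 405 at an unadjusted p under 0.05. The difference between the 7 day and the 24 h contrasts was 1.19 for Per2, 1.25 for Icam1, 1.23 for C4b, 1.21 for Usp2 and -0.57 for Il10rb on the log2 scale. None of these passed (limma, Benjamini-Hochberg adjusted p of 0.59 to 0.74), as did none of the 15982 genes, although 773 had an unadjusted p under 0.05.

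The sham libraries themselves stood at other levels at 7 days than at 24 h. Per2 had 717, 571 and 678 normalized counts in contralateral sham vessels at 24 h, above all 7 day sham libraries and on both sides of the 7 day tMCAO libraries. Il10rb had 2385, 2243 and 2241 there, below all 7 day sham libraries and within the range of the 7 day tMCAO libraries. Icam1 had 1806, 2119 and 1882 in the 24 h sham libraries, between the 7 day groups, and so did Usp2 with 301, 263 and 315. C4b had 396, 488 and 482 normalized counts in the 24 h sham libraries, which overlapped the 7 day sham libraries. Time after sham surgery and other conditions of the 24 h and 7 day series, such as the hour of killing, cannot be told apart, and the hour is not given in the sources used here.

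In the ipsilateral hemisphere at 7 days, 3.27% of genes were called higher and 9.95% lower. Per2 (log2 difference 1.52), Icam1 (1.38) and C4b (1.11) also rose there, against the ipsilateral sham libraries. Il10rb had a log2 difference of -0.46 with an adjusted p of 0.0015, inside the limit on its size. Usp2 had 225, 273 and 293 normalized counts in ipsilateral sham and 206, 264 and 318 in ipsilateral tMCAO vessels, which overlapped. The contrast of Usp2 differed between the hemispheres by -1.14 (limma, adjusted p = 0.0092 for the interaction), a test that 8.77% of all genes passed in this direction. The other 4 called genes did not pass the interaction, with adjusted p-values of 0.68 to 0.84. The called genes were picked by their contralateral difference, which is part of this tested contrast.

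**Figure D2:**
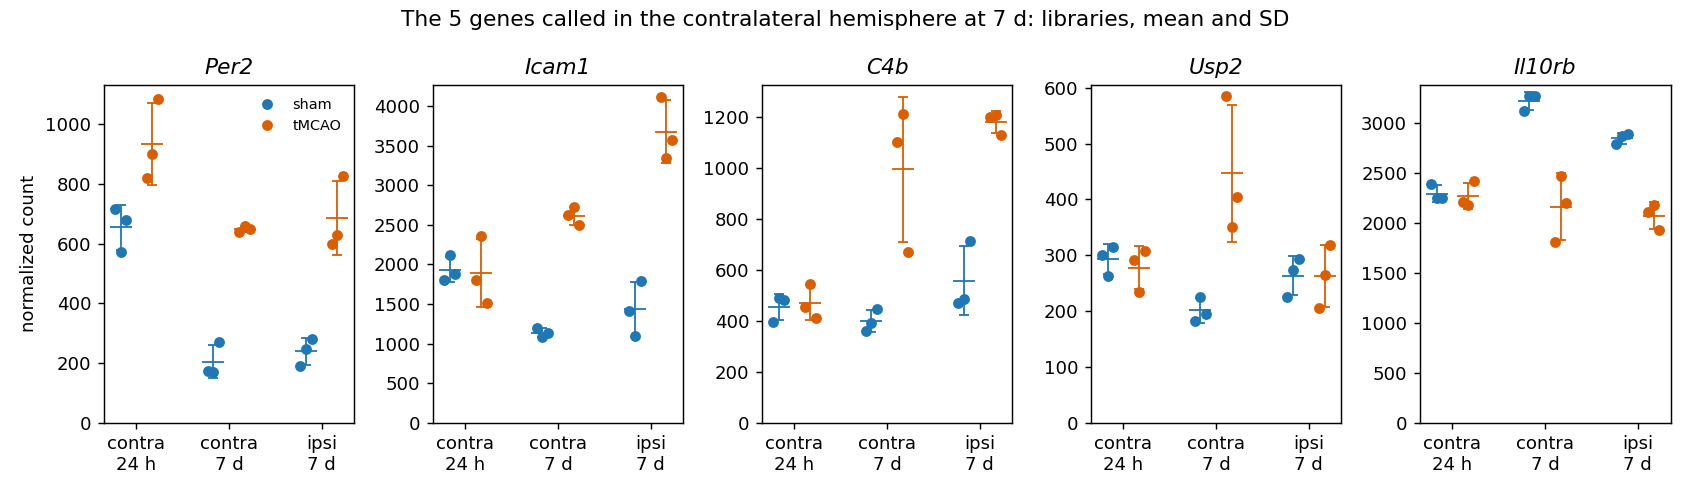
Normalized counts (vertical axes from 0) of the 5 called genes in sham (blue) and tMCAO (orange) libraries, with points for the 3 libraries of a group and bars for their mean ± SD. In the contralateral groups at 7 days the points do not overlap, while at 24 h the sham and tMCAO points of Icam1, C4b, Usp2 and Il10rb lie together, and those of Usp2 do so in the ipsilateral groups at 7 days as well.

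The leukocyte adhesion list held 15 tested genes, of which 1 was called (Icam1) and 3 were higher at an unadjusted p under 0.05. Vcam1, the ligand of the integrin VLA-4, had 7810, 7476 and 7137 normalized counts in sham and 9495, 12168 and 9358 in tMCAO vessels. Its groups did not overlap, but its log2 difference of 0.46 had an adjusted p of 0.37. Alcam, a ligand of CD6, had a log2 difference of 0.37 without overlap of the libraries (adjusted p = 0.46), and it had -0.45 in the ipsilateral hemisphere. The selectins, which let leukocytes roll along the vessel wall, varied widely between pools. Sele had 136, 7 and 238 normalized counts in sham and 539, 618 and 40 in tMCAO vessels, and Selp had 142, 1 and 214 in sham and 542, 200 and 16 in tMCAO vessels. For both, the libraries of a group spread over more than the distance between the groups. The constitutive adhesion and junction molecules Pecam1, Icam2, Esam, F11r, Jam2 and Cd34 had log2 differences between -0.25 and 0.09 with overlapping libraries.

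Of the venous markers, which overlap in part with the adhesion genes, 3 of 9 were higher and 1 was lower at an unadjusted p under 0.05. The shares over all genes were 6.48% higher and 3.77% lower at that p. Libraries did not overlap in 2 higher and 1 lower venous marker, against 5.04% and 4.76% of all genes. Vwf, the von Willebrand factor of endothelial granules, had 31720, 31859 and 28898 normalized counts in sham and 42952, 52254 and 48500 in tMCAO vessels, without overlap. Its log2 difference was 0.63 (limma, adjusted p = 0.27), and without tMCAO replicate 1 it was 0.71. Ackr1, the venular scavenger of chemokines, had 1333, 323 and 3128 in sham and 9041, 9925 and 2463 in tMCAO vessels. Here tMCAO replicate 3 lay under the highest sham library.

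Of 26 tested complement genes, 4 were higher and 1 lower at an unadjusted p under 0.05, and C4b alone was called. With tMCAO replicate 1 left out, 2 were higher and none was lower. Clu (clusterin) and Cd59a, inhibitors of the terminal complex, had log2 differences of 0.38 and 0.55, and without tMCAO replicate 1 that of Clu was 0.19. C3, the central component, had 27, 19 and 28 normalized counts in sham and 59, 35 and 24 in tMCAO vessels and overlapped. Itgax, a complement receptor chain, had a log2 difference of -0.94 at 6 to 24 normalized counts, and of -0.61 without that library. C1qa, C1qb and C1qc, which microglia and macrophages make, had log2 differences of -0.05, -0.04 and -0.16.

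Among 12 core clock genes, Per2 was called, 7 were higher at an unadjusted p under 0.05 and 1 was lower. The median log2 difference of the list was 0.45, against 0.01 over all genes. Its mean log2 level was 8.88 to 9.08 in sham and 9.24 to 9.34 in tMCAO libraries. In contralateral sham libraries at 24 h it was 9.18 to 9.41. The hour of killing of the 7 day tMCAO and sham pools is not given in the sources used here, and its part in the clock differences was not tested. The repressors Per3, Per1, Cry1 and Cry2 had log2 differences of 0.83, 0.82, 0.61 and 0.44, with adjusted p-values of 0.35 to 0.43 by limma. Per3 had 231, 185 and 159 normalized counts in sham and 266, 450 and 321 in tMCAO vessels, without overlap. Cry2 had 488, 566 and 446 in sham and 726, 662 and 642 in tMCAO vessels, also without overlap. Per1, which glucocorticoids also induce, had 746, 1084 and 2436 in sham and 2330, 1836 and 2551 in tMCAO vessels, and sham replicate 3 lay among the tMCAO values.

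The activator Arntl had 1343, 755 and 1672 normalized counts in sham and 1125, 377 and 470 in tMCAO vessels. Its log2 difference was -1.03 ± 0.46 (SE; limma, adjusted p = 0.45), and tMCAO replicate 1 overlapped the sham libraries. Nr1d1, a repressor of Arntl, had a log2 difference of -0.53, which was -0.26 without tMCAO replicate 1, and its paralogue Nr1d2 one of 0.45. Clock and Rora had differences of -0.11 and 0.01. Without tMCAO replicate 1, 4 core clock genes were higher and 2 (Arntl and Npas2) were lower at an unadjusted p under 0.05, the median of the list was 0.41 and the log2 difference of Arntl -1.50. Leaving out sham replicate 2, tMCAO replicate 2 or tMCAO replicate 3 also left 4 higher genes.

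Of 12 clock output and modifier genes, 3 were higher at an unadjusted p under 0.05, and Usp2 was called. Ciart, a repressor of the clock activators, had 63, 56 and 78 normalized counts in sham and 123, 259 and 288 in tMCAO vessels. All tMCAO libraries were above all sham libraries, with a log2 difference of 1.67 ± 0.36 (SE; limma, adjusted p = 0.12). Without tMCAO replicate 1 the difference of Ciart was 2.05. Tef, a PAR bZIP factor, had 2200, 2785 and 2209 in sham and 3045, 3961 and 4690 in tMCAO vessels. It did not overlap either, and its log2 difference was 0.69 (adjusted p = 0.29). Dbp, another PAR bZIP factor, overlapped with 1233, 1785 and 897 in sham and 785, 2801 and 1334 in tMCAO vessels. C920021L13Rik overlaps Ciart on the opposite strand.

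Clock activators bind the E-box CACGTG. The promoters of Ciart (GRCm38.p6, chr3:95882292-95882391, minus strand) and Tef (chr15:81802499-81802598, plus strand) from RefSeq are shown because they hold that sequence, in capitals, and belong to the clock output genes with the largest test statistics that do.
Ciart: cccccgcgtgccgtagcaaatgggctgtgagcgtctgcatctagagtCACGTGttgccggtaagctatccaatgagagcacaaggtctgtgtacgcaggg
Tef: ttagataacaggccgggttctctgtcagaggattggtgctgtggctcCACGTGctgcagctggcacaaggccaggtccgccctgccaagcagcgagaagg
The E-box was found in 3 of 9 clock output genes and 2 of 10 core clock genes matched to a promoter, and in 8.09% of all genes with a promoter. The windows reach from 250 bases before to 50 bases after the start of a gene.

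**Figure D3:**
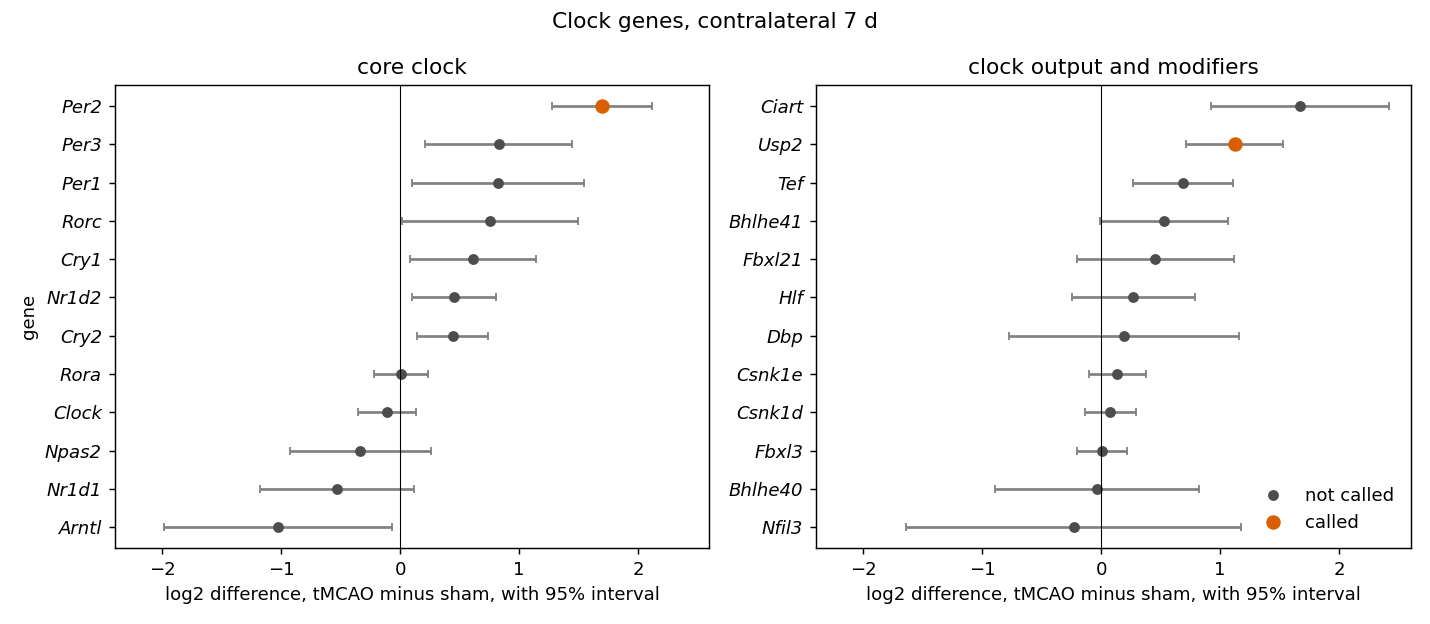
Log2 difference between tMCAO and sham contralateral vessels at 7 days (horizontal) with its 95% interval for 12 core clock and 12 clock output or modifier genes. Per2 and Usp2 (orange) were called, the other Per and Cry genes lie above 0, and Arntl at -1.03 is the lowest.

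Genes of the glucocorticoid response list were higher in part, and sham replicate 3 resembled the tMCAO libraries in them. Of 20 genes, 19 had a log2 difference above 0, 6 were higher at an unadjusted p under 0.05 and 1 was lower, and none was called by limma. The lower gene, named for this count alone, was Nr3c1, the glucocorticoid receptor itself. It had 3465, 3718 and 2882 normalized counts in sham and 1966, 2885 and 2615 in tMCAO vessels. Hif3a, a hypoxia-inducible factor that is also induced by glucocorticoids, had 162, 112 and 287 normalized counts in sham and 520, 559 and 533 in tMCAO vessels. It did not overlap, with a log2 difference of 1.63 ± 0.33 (SE; limma, adjusted p = 0.092). Klf9, a transcription factor, and Plin4, a lipid droplet protein, had log2 differences of 0.69 and 1.07 without overlap. Fkbp5, the co-chaperone that restrains the glucocorticoid receptor, was singled out after its values were seen. It had 935, 458 and 6257 in sham and 5324, 4283 and 3042 in tMCAO vessels, so that its highest value was in a sham library. The mean log2 level of the 20 genes was 10.31, 10.17 and 11.52 in the sham libraries and 11.68, 11.04 and 11.31 in the tMCAO libraries. Without sham replicate 3, 13 of the 20 were higher at an unadjusted p under 0.05, and the median log2 difference was 1.07 in place of 0.64. With tMCAO replicate 1 left out, 5 were higher and the median was 0.43, and without sham replicate 1 or 2, 4 were higher, with medians of 0.47 and 0.45.

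All 31 interferon-stimulated genes had a log2 difference below 0 at 7 days, with a median of -0.55. At an unadjusted p under 0.05, 22 of them were lower, and in 23 the libraries of the groups did not overlap. Over all genes, 3.77% were lower at that p and 4.76% lower without overlap. None was called by limma. Their mean log2 level was 9.46, 9.59 and 9.63 in the sham libraries and 8.82, 9.18 and 8.95 in the tMCAO libraries. All 31 stayed below 0 without tMCAO replicate 1, with 14 at an unadjusted p under 0.05 and a median of -0.47.

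Oasl2, an antiviral protein of the oligoadenylate synthetase family, had 1609, 1908 and 1981 normalized counts in sham and 893, 1256 and 949 in tMCAO vessels. The groups did not overlap, and the log2 difference was -0.84 ± 0.17 (SE; limma, adjusted p = 0.092). Gbp3, a guanylate-binding GTPase, had 2470, 3231 and 2570 in sham and 1256, 1804 and 1342 in tMCAO vessels, with a log2 difference of -0.92 (adjusted p = 0.17). Gbp2 had 3305, 3299 and 3491 in sham and 2178, 2205 and 1671 in tMCAO vessels, with a difference of -0.75 (adjusted p = 0.19). In both GTPases all tMCAO libraries were below all sham libraries. Xaf1, an interferon-induced promoter of apoptosis, had 745, 844 and 997 in sham and 541, 648 and 534 in tMCAO vessels, with a difference of -0.58 (adjusted p = 0.19).

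Interferon-activated transcription factors bind a response element with the core GAAANNGAAA. The stretches below, from RefSeq promoters of GRCm38.p6, show it in capitals, here read on the opposite strand, for the 3 interferon-stimulated genes with the largest test statistics that hold it. They are Gbp3 (chr3:142559954-142560053), Gbp2 (chr3:142620559-142620658) and Gbp7 (chr3:142530238-142530337), all on the plus strand.
Gbp3: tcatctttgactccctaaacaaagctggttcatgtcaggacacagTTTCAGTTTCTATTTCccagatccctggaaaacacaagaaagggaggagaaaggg
Gbp2: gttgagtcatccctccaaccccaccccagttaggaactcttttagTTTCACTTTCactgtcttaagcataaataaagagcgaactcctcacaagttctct
Gbp7: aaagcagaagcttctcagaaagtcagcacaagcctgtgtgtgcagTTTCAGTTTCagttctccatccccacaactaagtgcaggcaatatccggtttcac
In Gbp3 the capitals hold 2 overlapping matches. Of the 31 genes, 20 were matched to a promoter by symbol and 12 of these held the element, against 3.99% of all genes with a promoter. Gbp7, named for its sequence, had 922, 842 and 945 normalized counts in sham and 494, 760 and 434 in tMCAO vessels, without overlap.

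The 16 genes of MHC and antigen presentation also had log2 differences below 0 throughout, with a median of -0.43. Of these, 11 were lower at an unadjusted p under 0.05 (3.77% of all genes) and 9 did not overlap (4.76% of all genes were lower without overlap). None was called by limma. Without tMCAO replicate 1, all 16 remained below 0 and 5 had an unadjusted p under 0.05. Tap1, a subunit of the peptide transporter for class I, had 956, 1248 and 1151 normalized counts in sham and 773, 815 and 752 in tMCAO vessels. Its log2 difference was -0.51 ± 0.13 (SE; limma, adjusted p = 0.21). H2-Ab1, a class II chain of antigen-presenting cells, had 292, 300 and 372 in sham and 187, 142 and 184 in tMCAO vessels, with a log2 difference of -0.91. The groups did not overlap in either gene. The mean log2 level of the B cell panel was 3.65, 4.51 and 4.28 in sham and 3.35, 3.27 and 3.58 in tMCAO libraries, and that of the microglia panel 8.21, 7.85 and 7.68 in sham and 7.51, 7.77 and 7.81 in tMCAO libraries. The mean log2 level of the T cell panel was 3.99, 4.46 and 4.62 in sham and 3.73, 3.62 and 3.57 in tMCAO libraries, and that of the pericyte panel 12.29, 12.17 and 12.39 in sham and 12.01, 11.98 and 12.11 in tMCAO libraries. The B cell, T cell and pericyte panels were lower in all tMCAO libraries and the microglia panel overlapped. Of 9 pericyte markers 8 were below 0 and 4 were lower without overlap, against 4.76% of all genes. The part of these panels in the interferon and MHC differences was not tested.

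Receptors and signalling proteins upstream of these genes were lower in part. Of 16 tested class II cytokine receptor and JAK-STAT genes, 7 were lower and 1 was higher at an unadjusted p under 0.05, and Il10rb was called. The higher gene was Il20rb, a chain of the receptors for interleukins 20 and 24, with 75, 48 and 65 normalized counts in sham and 134, 93 and 113 in tMCAO vessels. Ifnar1, a chain of the type I interferon receptor, had 4920, 3972 and 4091 normalized counts in sham and 2602, 3622 and 2739 in tMCAO vessels. It did not overlap, with a log2 difference of -0.54 ± 0.13 (SE; limma, adjusted p = 0.19). Ifnar2, the other chain, had a difference of -0.40 and Tyk2, a JAK kinase, one of -0.44, both without overlap. Socs1, a feedback inhibitor, had 61, 68 and 59 normalized counts in sham and 50, 30 and 23 in tMCAO vessels. Jak1, Jak2 and Stat3 had log2 differences of 0.12, 0.11 and 0.16 and overlapped. The choice of Ifnar2, Tyk2, Socs1, Jak1, Jak2 and Stat3 was made with their values in view.

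At 24 h the interferon-stimulated genes had a median contralateral log2 difference of -0.00, with 15 of 31 above 0 and none at an unadjusted p under 0.05, where 1.2% of all genes were higher and 1.33% lower. The MHC list had a median of -0.01 at 24 h. In the ipsilateral hemisphere at 7 days the interferon list had a median of 0.09 and the MHC list one of 0.08. The ipsilateral contrast was above the contralateral one at an adjusted p under 0.05 for 3 of 31 interferon-stimulated and 3 of 16 MHC genes (limma interaction), against 1.48% of all genes. These were Oasl2, Xaf1 and Psmb8, and Tap1, Tap2 and H2-T23, of which Psmb8 and H2-T23 are named for this result alone. The same-numbered libraries of the hemispheres may come from the same pool of animals, which the sources used here do not state. With that number as a random block, 13 of 31 and 4 of 16 genes passed, against 4.67% of all genes. With array weights, which count tMCAO replicate 1 less, none of the 31 and 1 of the 16 passed, against 1.24% of all genes. No gene of either list passed the test between 7 days and 24 h.

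The level of the interferon list also differed between the sham groups. Its mean log2 level was 9.46 to 9.63 in contralateral and 9.41 to 9.61 in ipsilateral sham libraries at 7 days, and 8.67 to 8.77 in contralateral sham libraries at 24 h. The contralateral tMCAO libraries at 7 days, at 8.82 to 9.18, lay between these, and the ipsilateral tMCAO libraries at 7 days reached 9.55 to 9.62. Oasl2 had 908, 906 and 986 normalized counts in contralateral sham vessels at 24 h, within the range of the contralateral tMCAO libraries at 7 days. Gbp3 had 980, 784 and 1044 there, below all 6 contralateral libraries at 7 days.

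**Figure D4:**
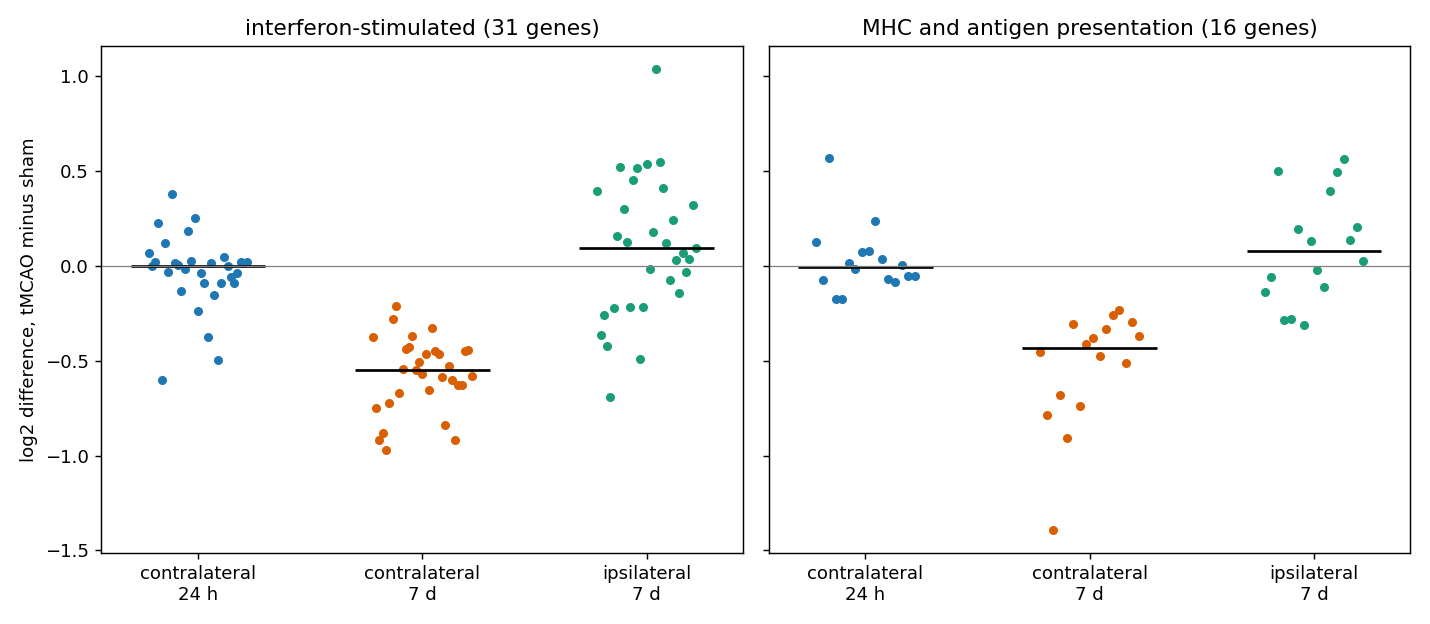
Log2 difference between tMCAO and sham vessels (vertical) for each of 31 interferon-stimulated (left) and 16 MHC and antigen presentation genes (right) in 3 comparisons, with a line at the median. In the contralateral comparison at 7 days all points lie below 0, with medians of -0.55 and -0.43, while at 24 h and in the ipsilateral hemisphere they lie on both sides.

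Among genes outside these lists, those with the largest test statistics that were not called had adjusted p-values of 0.058 to 0.13 by limma. Mmp15, a membrane-bound matrix metalloproteinase, had 746, 1075 and 623 normalized counts in sham and 310, 383 and 320 in tMCAO vessels, a log2 difference of -1.24. Ptn (pleiotrophin), a heparin-binding growth factor, had 16197, 16776 and 18247 in sham and 8696, 10359 and 10412 in tMCAO vessels. Timp4, an inhibitor of metalloproteinases, had 174, 153 and 178 in sham and 604, 350 and 426 in tMCAO vessels, a difference of 1.41. Without tMCAO replicate 1 the difference of Timp4 was 1.20. In all of these genes the groups were apart. Timp4 lies within Syn2 on the opposite strand, a synaptic gene.

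Cd83 and Cd209a, known from antigen-presenting cells, had log2 differences of -1.09 and -1.22. Cd209a had 68, 90 and 83 normalized counts in sham and 28, 36 and 38 in tMCAO vessels. Layn, Colca2, Gm9946 and AC132623.2 were also lower without overlap, with log2 differences of -0.78, -1.13, -1.54 and -0.98. Fzd9, a Wnt receptor, and Sidt1, a transmembrane protein, were higher without overlap, by 1.22 and 1.37 on the log2 scale. Itih3, a hyaluronan-binding protein, had 132, 136 and 131 normalized counts in sham and 753, 237 and 372 in tMCAO vessels. In Itih3 and Sidt1 the highest library was tMCAO replicate 1, and without it their log2 differences were 1.15 and 1.05.

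Markers of cells around the vessels moved with the comparison and mostly with that library. In bulk vessels, fewer cells of a type and less RNA per cell cannot be told apart. All 10 astrocyte markers had a log2 difference above 0 and 6 were higher at an unadjusted p under 0.05, with a median of 0.74. Their mean log2 level was 10.43, 10.38 and 10.48 in sham and 11.95, 10.71 and 10.85 in tMCAO libraries, without overlap. Their summed normalized counts, at 62073 to 66404 and 65533 to 101416, overlapped. Ipsilateral sham libraries had mean log2 levels of 10.49 to 11.45 at 7 days and 10.67 to 11.31 at 24 h. Contralateral sham libraries at 24 h had 10.23 to 10.78. Each of these ranges overlapped that of the contralateral tMCAO libraries at 7 days. Gfap, the intermediate filament of reactive astrocytes, had 1030, 762 and 867 normalized counts in sham and 6583, 1981 and 2349 in tMCAO vessels. In Gfap and in Fgfr3, a growth factor receptor of astrocytes, all tMCAO libraries were above all sham libraries. Fgfr3 had 725, 649 and 894 in sham and 2140, 1453 and 1148 in tMCAO vessels, with a log2 difference of 1.03 (limma, adjusted p = 0.19). Without tMCAO replicate 1, 2 of 10 astrocyte markers were higher at an unadjusted p under 0.05, and the median was 0.34. The log2 differences of Gfap and Fgfr3 were then 1.29 and 0.78.

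All 10 neuron markers were above 0 too, 5 of them at an unadjusted p under 0.05, with a median of 0.70. Their mean log2 level of 8.84, 9.30 and 8.60 in sham and 10.71, 9.03 and 9.17 in tMCAO libraries overlapped, with replicate 1 of the tMCAO group far above the rest. Rbfox3, the nuclear antigen NeuN, had 126, 210 and 139 normalized counts in sham and 544, 222 and 238 in tMCAO vessels. Without that replicate, 1 neuron marker had an unadjusted p under 0.05 and the median was 0.17. The 8 oligodendrocyte markers had a median of 0.40 with it and 0.07 without it. The summed normalized counts of the neuron panel were 5933 to 9034 in sham and 8374 to 24956 in tMCAO libraries, and those of the oligodendrocyte panel 33435 to 60605 and 56506 to 105870. Their part in the differences above was not tested.

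Fibroblast markers went the other way, with 8 of 9 below 0, 4 at an unadjusted p under 0.05 and 7 without overlap of the libraries. Over all genes, 3.77% were lower at that p and 4.76% lower without overlap. Lum, a collagen-binding proteoglycan, had 541, 470 and 453 normalized counts in sham and 211, 268 and 342 in tMCAO vessels, with a log2 difference of -0.86 (limma, adjusted p = 0.37). Col1a1 had 1360, 1044 and 943 in sham and 517, 676 and 791 in tMCAO vessels. The summed level of the panel was 10406 to 14676 in sham and 6523 to 9892 in tMCAO libraries, and without tMCAO replicate 1 it had 1 marker at an unadjusted p under 0.05. Of 12 endothelial markers 10 were below 0 and 3 were lower at an unadjusted p under 0.05, all with overlapping libraries. Cldn5, the main claudin of the barrier, had 66619, 74690 and 59647 in sham and 43561, 47962 and 61260 in tMCAO vessels, a log2 difference of -0.40 (limma, adjusted p = 0.41). Without tMCAO replicate 1 no endothelial marker had an unadjusted p under 0.05. Microglia markers had 8 of 9 below 0 with a median of -0.12 and summed levels of 3977 to 5120 in sham and 3218 to 4527 in tMCAO libraries.

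**Figure D5:**
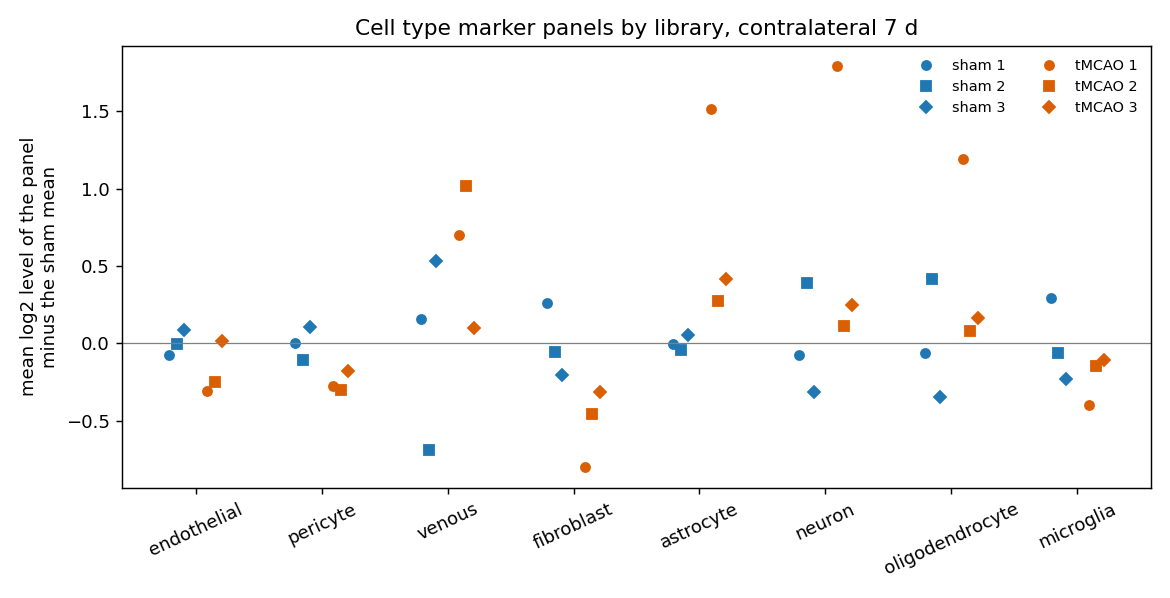
Mean log2 level of 8 cell type marker panels in each contralateral library at 7 days, minus the mean of the sham libraries, with blue for sham, orange for tMCAO and a symbol for each replicate number. Replicate 1 of the tMCAO group has the highest astrocyte, neuron and oligodendrocyte and the lowest fibroblast level.

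Libraries did not overlap in 1 higher and 3 lower of 15 chemokine genes and in 1 higher and 2 lower of 26 barrier transporter genes. The same held for 2 higher and 3 lower of 20 Wnt pathway genes. Over all genes, 5.04% were higher and 4.76% lower without overlap, so counts this small say little about the lists. Cxcl12, a chemokine that holds leukocytes at the abluminal side of vessels, had 30793, 27325 and 22021 normalized counts in sham and 13546, 16664 and 21518 in tMCAO vessels (log2 difference -0.64; limma, adjusted p = 0.21). Without tMCAO replicate 1 its difference was -0.48. Slc40a1 (ferroportin), the iron exporter, had 6671, 6649 and 6277 in sham and 2734, 3505 and 5284 in tMCAO vessels. Its log2 difference was -0.82 (adjusted p = 0.14), and without tMCAO replicate 1 it was -0.60. Wnt11 had 105, 72 and 109 in sham and 183, 213 and 275 in tMCAO vessels, with a difference of 1.22 (adjusted p = 0.14). Dll4, the Notch ligand of arterial and tip cells and a member of the sprouting list, had 3327, 3184 and 4497 in sham and 3030, 2452 and 1806 in tMCAO vessels, with a difference of -0.61 (adjusted p = 0.33). In all of these the groups were apart, if narrowly in Cxcl12 and Dll4.

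Lrg1 and Nfkbiz varied widely between pools. Lrg1, a secreted glycoprotein of activated venules, had 1899, 479 and 7093 normalized counts in sham and 9444, 11056 and 4862 in tMCAO vessels. Nfkbiz, an NF-κB cofactor, had 174, 67 and 323 in sham and 613, 634 and 218 in tMCAO vessels. In both genes, as in Sele, Selp and Ackr1, tMCAO replicate 3 was the lowest of its group and sham replicate 2 the lowest of all. Of 23 tested NF-κB targets and feedback genes, 20 had a log2 difference above 0, 3 were higher and 1 was lower at an unadjusted p under 0.05, and none was called by limma. When tMCAO replicate 1 was left out, 10 of the 23 were above 0 and the median log2 difference went from 0.23 to -0.06, and without sham replicate 2, 14 were above 0. The lower gene was Irf1, an interferon-induced factor, with 1794, 1910 and 1906 in sham and 1377, 1665 and 1216 in tMCAO vessels.

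Basement membrane genes were lower in part. Of 18 genes 13 had a log2 difference below 0, 4 were lower at an unadjusted p under 0.05 and 5 were lower without overlap. None was called by limma. Among all genes, 3.77% were lower at that p and 4.76% lower without overlap. The mean log2 level of the 18 genes was 11.85, 11.66 and 11.72 in sham and 11.58, 11.57 and 11.43 in tMCAO libraries. Every tMCAO library was thus below every sham library. Col15a1, a collagen of vessel basement membranes, had 933, 801 and 626 normalized counts in sham and 245, 556 and 321 in tMCAO vessels, with a log2 difference of -1.14 (limma, adjusted p = 0.35). Without tMCAO replicate 1 that difference was -0.88. Lamb1, a laminin chain, had 712, 474 and 573 in sham and 385, 358 and 366 in tMCAO vessels. Leaving out tMCAO replicate 1 gave 3 lower genes at an unadjusted p under 0.05.

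Most of the lists below held few genes past an unadjusted p under 0.05. Of 14 tight junction genes 1 was higher and 1 lower, of 80 cytosolic ribosomal protein genes none was either, and of 96 oxidative phosphorylation genes 1 was lower. None of 22 immediate early and AP-1 genes and none of 14 hypoxia and glycolysis genes was past that limit. Of 26 barrier transporter genes 1 was higher and 4 were lower, where 6.48% of all genes were higher and 3.77% lower. Without tMCAO replicate 1 none of the 26 was higher and 1 was lower. No gene of these lists was called by limma.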

How the data were processed

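Libraries were grouped by their labels. The paper's methods give trimming, alignment with STAR to mm10, removal of reads with several matches and normalization with DESeq2. The submitters' processing notes name STAR 2.5.2b, featureCounts 1.5.1 and DESeq2 1.6.2. Outlying samples were left out by the authors before deposit. The deposited values are a score, since the authors divided the counts by size factors and rounded them to whole numbers. They are not raw counts, so limma replaced DESeq2.

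After a pseudocount of 1, log2 values of the 15982 of 17270 genes with a mean above 5 over the 24 libraries were fitted with all 8 groups in limma 3.58.1 (R 4.3.3), with a mean-variance trend and Benjamini-Hochberg adjustment over these genes. Calls needed an adjusted p under 0.05 together with more than a 1.5-fold difference. On data simulated for the contralateral 7 day comparison, with 15968 genes tested, calls recovered 71% of the 100 genes given a log2 change of 1 and 92% of the 100 given a change of 2, with 5 false calls. The simulation gave each gene the same spread in all groups and held no library that stood apart as tMCAO replicate 1 did. Its rates therefore need not hold for these 6 libraries. Reads were estimated from size factors (largest error in simulated libraries 0.0021). Depth limits counting error only.

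The comparison and the gene lists were chosen with earlier results of these data known. Named genes are those called, the 10 largest and 10 smallest moderated t-values with a mean of at least 20 over the 6 libraries, and up to 4 members per list (any member for clock, complement and adhesion lists); others are marked where named. Levels of lists in all groups and list counts under the alternatives were added after the values were seen. Promoters were read from RefSeq (GRCm38.p6), matched by symbol. Python 3.11.15 with pandas 2.3.3, numpy 2.4.6 and matplotlib 3.10.9 was used. Alternatives were another pseudocount, other filters, median centring, only the 2 groups, blocks, array weights, no fold limit and each library left out. The same-numbered libraries of tMCAO and sham did not deviate together. Some genes are not reported here.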

Additional observations from a re-analysis of the deposited data

Results flagged for a closer look

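For 10 genes the tMCAO-sham contrast at 7 days differed between the hemispheres (limma interaction, Benjamini-Hochberg adjusted p under 0.05, n = 3 libraries in each of 4 groups). They were looked for among the called genes, the genes with the largest test statistics and the interferon and MHC lists. The called genes and those with the largest statistics were picked by the contralateral difference, which is part of the tested contrast. Their passing is therefore favoured by the choice where the interaction has the opposite sign. Over all genes, 1.48% passed with the ipsilateral contrast above the contralateral one and 8.77% with it below. The ipsilateral contrast was above the contralateral one by 0.76 (Oasl2), 0.77 (Psmb8), 0.67 (Xaf1), 0.65 (Tap1), 0.50 (Tap2), 0.76 (H2-T23) and 1.03 (AC132623.2) on the log2 scale. All 7 had a contralateral difference below 0, while their ipsilateral differences were -0.07, 0.24, 0.09, 0.13, 0.20, 0.49 and 0.05. The ipsilateral contrast was below the contralateral one for Usp2 (-1.14), Cd209a (-1.84) and Sidt1 (-3.20). Usp2 had 1.12 contralaterally and -0.02 ipsilaterally, Cd209a had -1.22 and -3.05, and Sidt1 had 1.37 and -1.83. Outside this search, Alcam (-0.82) and Socs1 (1.43) also passed the interaction, with adjusted p-values of 0.031 and 0.013. With array weights, added after seeing the data, none of the interferon genes named here and only H2-T23 of the MHC genes passed. AC132623.2 overlaps 5033406O09Rik on its own strand, and Gm26732 lies opposite Sidt1.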

How the results depend on the processing

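Of the genes called, 4 higher and 1 lower, the same 5 were called with a pseudocount of 0.5, without the filter, with a minimum mean of 20 and with the filter over the 6 libraries. Fitting only the 2 groups gave 0 higher and 0 lower genes. That fit leaves fewer residual degrees of freedom and takes the spread from these 6 libraries alone. Median centring gave 2 lower genes and added Mmp15. Same-numbered tMCAO and sham libraries had correlations of their deviations of 0.05, -0.01 and -0.17. With 3 libraries in a group, these cannot show whether such libraries share a surgery day. Same-numbered hemispheres at 7 days had 0.325, 0.442 and 0.467 in sham and 0.06, 0.31 and 0.06 in tMCAO mice. The replicate block gave 12 higher and 12 lower genes, among them the 5. With the mouse pool as a random block, 5 genes were lower and 2633 genes differed between the hemispheres, against 1638. Array weights, lowest for tMCAO replicate 1 with 0.371, kept 4 of the 5 and lost Il10rb. Leaving out 1 library gave 1 to 8 higher and 0 to 4 lower genes: sham replicate 1 left Per2 and Icam1, sham replicate 2 and tMCAO replicate 1 each left Per2 alone, and without sham replicate 3, 2 of the 5 were kept. The cause of these changes was not tested, beyond the loss of a sample. Icam1 had adjusted p-values of 0.021 to 0.086 over the left-out libraries, C4b 0.0049 to 0.22, Usp2 0.023 to 0.26 and Il10rb 0.0054 to 0.12, without a change of direction. The count of lower interferon-stimulated genes at an unadjusted p under 0.05 was 14 to 24 over the left-out libraries and 14 with array weights, that of MHC genes 3 to 12 and 4 (3 without sham replicate 2, 4 without sham replicate 3 and 5 without tMCAO replicate 1), and the medians of both lists stayed below 0 in each alternative.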
